A study of Mus musculus with 16 samples.

Results

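Mesothelial cells were followed through 10 marker genes, Msln, Upk3b, Upk1b, Lrrn4, Wt1, Bnc1, Krt8, Krt18, Krt19 and Gpm6a, in RNA-sequencing libraries of mouse subcutaneous and visceral adipose tissue (SAT and VAT). The genes were chosen by name, and every RefSeq transcript of the count table that maps to one of these symbols was taken. This gave 20 of the 130343 transcripts listed, of which 17 had at least 1 count in the 16 libraries. In VAT every library held these transcripts, with a summed level of 270.4 to 665.6 CPM (counts scaled to the total of the library), whereas no SAT library exceeded 2.104 CPM. Of the 10 transcripts tested for a diet difference in VAT, 0 passed, where 10.9% of all transcripts tested did. The estimates of 9 of the 10 lay below 0.

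The libraries came from 8 male wild-type C57BL/6J mice. In 4 obese mice a high-fat diet with 42% of its energy from fat and 0.2% cholesterol was started at 10 weeks of age and kept for 12 to 14 months, and 4 lean mice received a standard laboratory diet for the same time. Each mouse gave inguinal SAT and mesenteric VAT, which makes 4 groups of 4 libraries, each from a separate mouse. The mesenteric fat was dissected from the intact bowel, and whole tissue RNA was sequenced, so that fewer mesothelial cells and less marker RNA per cell cannot be told apart.

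The mesothelium is a single layer of flattened cells of mesodermal origin that lines the body cavities and the organs inside them. Mesenteric fat lies in the peritoneal cavity and is covered by it, while inguinal fat lies under the skin and is not. Although mesodermal, these cells carry simple epithelial keratins and surface proteins first described in the urothelium. They secrete lubricating fluid, and the transcription factor Wt1 is needed for their development.

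Depth differed between libraries. Total counts ranged from 1256082 in VAT lean 1 to 16614407 in SAT obese 3, and VAT obese 1 held 2247737. A count of 0 over the 4 SAT libraries of a diet allows up to 0.0869 CPM in lean mice and 0.0599 CPM in obese mice, taking 3 counts as the limit, and such limits cover counting error only. CPM levels above and below were scaled with TMM factors, which balance libraries for differences in composition, unless named as deposited. A gene with several transcripts in the table is given as the sum over them, and the tests were run on single transcripts. The libraries were made with a directional kit. The strand setting of the counting and the treatment of reads shared between transcripts are not given in the sources used here. A low count of a gene with several transcripts is therefore not read as low expression.

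RefSeq promoter windows were found for 6 of the 10 genes: Upk3b, Lrrn4, Bnc1, Krt8, Krt18 and Gpm6a, which has 2. Because 9 of the genes were high in the same depot, the 250 bases before the start were searched on both strands for 4 motifs. The letters GGAATG are the core bound by TEAD factors. The GC box was searched as GGGCGG in either direction. The box that binds the TATA protein was searched as TATAAA likewise. The last motif, GCGTGGG in letters, is shared by Egr factors and by Wt1. The TEAD motif was found in 3 of the 7 windows, those of Upk3b, Lrrn4 and Gpm6a, and in 12.6% of all 32851 windows of this length. The windows of the 3 genes are shown so that the matches, in capitals, can be seen in place. Coordinates are those of build GRCm38.p6, and each sequence runs 5′ to 3′ on the strand of its gene. The Upk3b window lies at chr5:136038246-136038495 on the plus strand, the Lrrn4 window at chr2:132880863-132881112 on the minus strand and the first Gpm6a window at chr8:54779184-54779433 on the plus strand.
Upk3b: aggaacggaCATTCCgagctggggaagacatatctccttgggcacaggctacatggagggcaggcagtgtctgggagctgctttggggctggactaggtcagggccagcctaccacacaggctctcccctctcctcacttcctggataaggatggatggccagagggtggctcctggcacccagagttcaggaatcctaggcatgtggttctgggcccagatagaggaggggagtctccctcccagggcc
Lrrn4: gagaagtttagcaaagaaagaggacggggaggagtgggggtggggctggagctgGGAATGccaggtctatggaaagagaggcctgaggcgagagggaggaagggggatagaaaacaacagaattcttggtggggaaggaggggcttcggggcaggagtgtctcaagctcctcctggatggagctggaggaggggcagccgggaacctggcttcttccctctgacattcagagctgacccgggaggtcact
Gpm6a: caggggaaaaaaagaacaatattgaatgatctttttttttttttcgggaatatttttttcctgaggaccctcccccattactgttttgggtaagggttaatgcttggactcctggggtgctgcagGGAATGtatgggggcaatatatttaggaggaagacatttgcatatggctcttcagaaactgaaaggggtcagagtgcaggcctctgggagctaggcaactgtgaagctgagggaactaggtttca

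Keratins 8 and 18 form the filament pair of simple epithelia and their genes are neighbours, so their windows are shown side by side. They lie at chr15:102004343-102004592 on the minus strand for Krt8 and chr15:102027966-102028215 on the plus strand for Krt18, and none of the 4 motifs was found in them, so they have no capitals.
Krt8: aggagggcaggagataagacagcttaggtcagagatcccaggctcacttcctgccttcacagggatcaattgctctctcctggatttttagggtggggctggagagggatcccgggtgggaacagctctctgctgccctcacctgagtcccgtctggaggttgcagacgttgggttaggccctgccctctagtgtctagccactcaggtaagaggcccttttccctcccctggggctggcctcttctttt
Krt18: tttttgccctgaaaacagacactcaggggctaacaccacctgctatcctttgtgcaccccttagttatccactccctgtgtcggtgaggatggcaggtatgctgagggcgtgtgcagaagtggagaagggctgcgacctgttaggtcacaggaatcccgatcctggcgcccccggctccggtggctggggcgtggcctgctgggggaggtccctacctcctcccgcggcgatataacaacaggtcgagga

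The remaining matches were GC boxes in the Bnc1 window (a motif in 32.7% of all windows) and a TATA box in the second Gpm6a window (12.4%). The Egr and Wt1 motif was in none of the 7 windows and in 4.3% of all. The windows differed in base composition, with 60.8% G and C in Upk3b, 44.4% in the first Gpm6a window and 83.6% in Bnc1, against a median of 52.4% over all windows. A match is a description of the letters and not a measured site.

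In build GRCm39 with the GENCODE annotation, the 10 genes lie on 8 chromosomes. Upk3b spans 136067350 to 136075342 on the plus strand of chromosome 5, and Upk1b spans 38591981 to 38620727 on the minus strand of chromosome 16. Msln lies at 25967312 to 25985619 on the minus strand of chromosome 17. Wt1 (104956625 to 105003961, plus strand) and Lrrn4 (132705985 to 132735941, minus strand) are both on chromosome 2. Krt8 (101905133 to 101912917, minus strand) and Krt18 (101936615 to 101940462, plus strand) are on chromosome 15, and Krt19 (100031636 to 100039491, minus strand) is on chromosome 11. Bnc1 lies at 81616401 to 81642341 on the minus strand of chromosome 7 and Gpm6a at 55407719 to 55513912 on the plus strand of chromosome 8. Annotated genes on the opposite strand overlap 8 of them, among them Crls1 at Lrrn4 and Wt1os at Wt1. Without a known strand setting of the counting, it cannot be said whether their reads were kept apart where they overlap.

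The uroplakins are membrane proteins that form plaques on the urothelium. Upk3b, which is also a standard mesothelial marker, gave 62.2% of all counts of the 10 genes in VAT. Its levels in the 4 lean VAT libraries were 294.3, 428.2, 166.3 and 385.6 CPM, and in the 4 obese VAT libraries 211.6, 204.2, 205.2 and 244.3 CPM. In SAT it had 0, 0.2805, 0.2849 and 0 CPM in lean mice and 0, 0.2111, 0.2063 and 0 CPM in obese mice, 10 counts over 8 libraries. Every VAT library stood far above every SAT library, and the mean was 2254-fold higher in VAT of lean mice and 2073-fold higher in VAT of obese mice, each on 5 counts in SAT. Its partner family member Upk1b, a tetraspanin, had no count in SAT. Upk1b reached 5.096, 11.92, 5.342 and 11.45 CPM in lean VAT, and in obese VAT 7.638, 7.149, 4.488 and 7.51 CPM, at least 97.28-fold and at least 111.8-fold above SAT.

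Wt1, the zinc finger transcription factor of the mesothelium, kidney and gonad, gave a further 19.9% of the counts. It had 113.4, 123.9, 55.56 and 106.3 CPM in VAT of lean mice, compared with 63.4, 75.93, 73.05 and 88.16 CPM in VAT of obese mice. No Wt1 read was counted in any of the 8 SAT libraries, which places VAT at least 1149-fold higher in lean mice and at least 1254-fold higher in obese mice. Wt1 is also known from stromal cells of visceral fat, so its reads need not come from the mesothelium alone. The second transcription factor, Bnc1 (basonuclin 1), has several transcripts in the table and drew almost no reads. It had 3 counts over its 3 transcripts in all VAT libraries and none in SAT, so that no fold is given and it did not pass the filter on low counts.

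Msln encodes mesothelin, a surface glycoprotein. Its levels were 7.006, 8.942, 4.701 and 14.75 CPM in lean VAT, 6.111, 7.642, 5.061 and 8.62 CPM in obese VAT and 0 in all SAT libraries, at least 101.9-fold lower there in lean mice and at least 114.5-fold lower in obese mice. Most Msln counts (78.7%) fell on 1 of its 3 transcripts. Lrrn4, a leucine-rich repeat membrane protein, had 17.2, 17.65, 9.723 and 22.79 CPM in VAT of lean mice, compared with 12.99, 7.889, 8.785 and 13.91 CPM in VAT of obese mice. Lrrn4 gave the highest level of any of the genes in a SAT library, 1.122 CPM in SAT lean 2 from 8 counts. Its means were 42.27-fold higher in VAT of lean mice and 71-fold higher in VAT of obese mice. Gpm6a, a membrane glycoprotein better known from neurons, had 10.83, 11.68, 5.877 and 10.79 CPM in VAT of lean mice, compared with 4.965, 7.971, 7.448 and 7.169 CPM in VAT of obese mice. The mean of Gpm6a in lean mice was 43.91-fold higher in VAT. Of its 7 lean SAT counts 3 fell on a transcript with no count in VAT, and the fitted log2 fold change in lean mice was 6.23 on the tested transcript and 5.45 on the sum. For Gpm6a in obese mice the pooled counts, with 1 count in SAT, gave a ratio of 368.3 (95% counting interval 65.55 to 14600).

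The 3 keratins are shared with other simple epithelia, among them the gut lining. Krt8 had 14.65, 28.08, 6.945 and 17.94 CPM in VAT of lean mice, compared with 15.28, 11.18, 9.931 and 12.46 CPM in VAT of obese mice, with 2 counts in SAT, both in SAT obese 3. Krt18 had 8.917, 18.78, 8.441 and 20.92 CPM in VAT of lean mice, compared with 14.89, 10.6, 8.785 and 14 CPM in VAT of obese mice, and 23 counts in SAT. For Krt19 the levels were 19.75, 16.33, 7.586 and 18.49 CPM in VAT of lean mice, compared with 19.1, 10.19, 8.881 and 14.17 CPM in VAT of obese mice, with 15 counts in SAT. The keratins, Upk3b, Lrrn4 and Gpm6a thus had a few reads in SAT, while Msln, Upk1b, Wt1 and Bnc1 had none. The VAT mean of Krt18 was 48.89-fold higher in lean mice and 56.84-fold higher in obese mice. Krt8 was at least 194.6-fold higher in lean VAT and 288.4-fold higher by pooled counts in obese VAT (interval 79.35 to 2389), and Krt19 170.2-fold (57.93 to 827.8, pooled counts) and 48.55-fold higher.

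**Figure D1:**
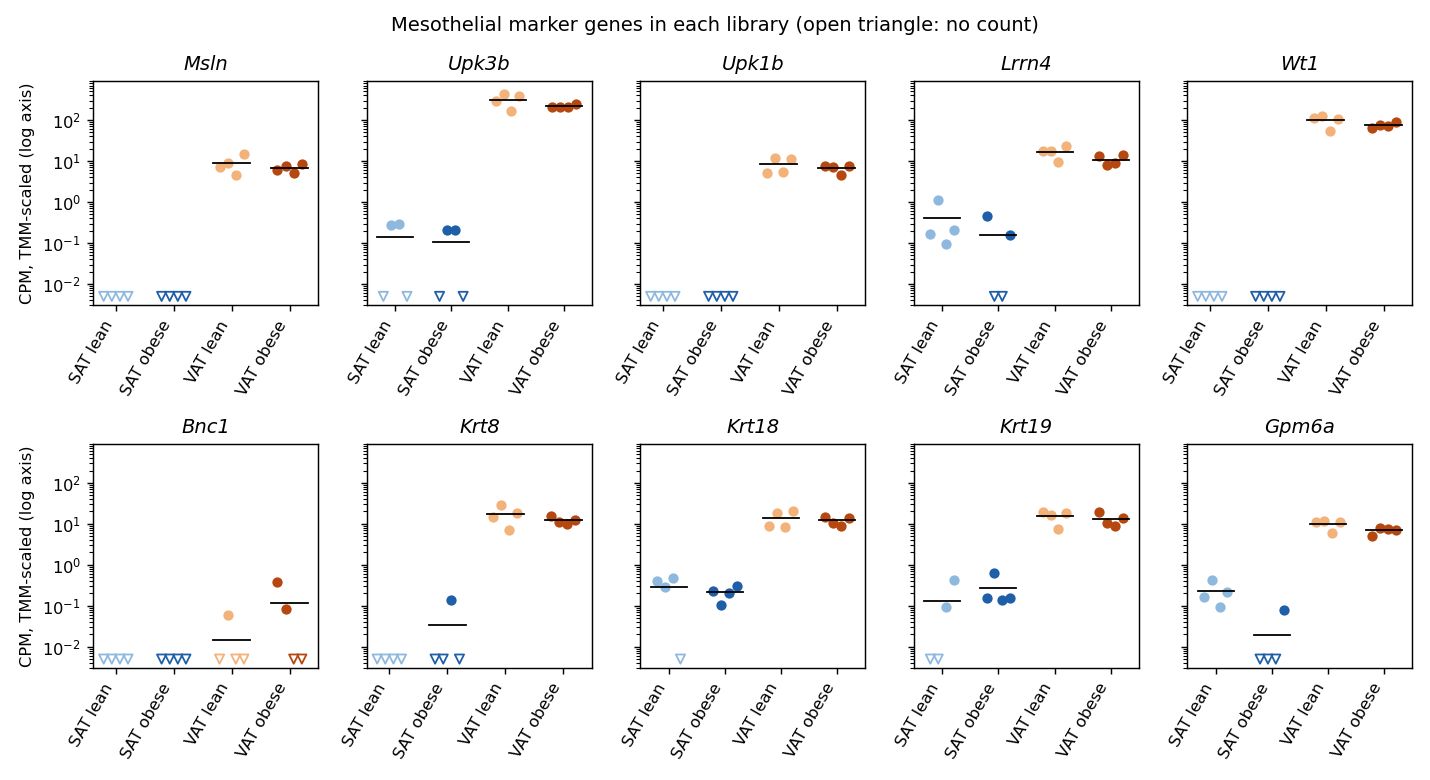
Level of each marker gene (CPM scaled with TMM factors, log axis) in the 4 libraries of each group, with a black line at the group mean and open triangles at the bottom for libraries with no count. For 9 of the 10 genes every VAT library stands above every SAT library, and Bnc1 has 3 counts in all.

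The question between depots was tested within the mouse, with edgeR's quasi-likelihood test over 13288 transcripts that had more than 1 CPM in at least 3 libraries. Of the 20 transcripts, 10 passed that filter, from 9 genes, Bnc1 being left out. All 10 were higher in VAT of lean mice (adjusted p between 1.45e-16 and 0.0018), where 7.98% of all transcripts tested were higher and 6.84% lower. In obese mice all 10 were higher in VAT (adjusted p between 1.07e-16 and 3.73e-05), against 15.9% of all tested higher and 13.5% lower. The fitted log2 fold change of Upk3b was 10.86 (SE 0.31) in lean mice and 10.91 (SE 0.31) in obese mice. That of Krt18 was 5.16 (SE 0.38) and 5.70 (SE 0.37). With so few SAT counts, single mice moved the size of these folds by over 1.5 times, while the calls stayed. The value for Upk3b was 11.84 without lean mouse 3 and 11.63 without obese mouse 3. For Lrrn4 it went from 5.41 to 6.58 in lean mice without lean mouse 2, which held 8 of the 12 SAT counts, and from 6.24 to 7.27 in obese mice without obese mouse 1. For Krt19 it went from 7.16 to 6.38 without lean mouse 1 and to 8.29 without lean mouse 4, and from 5.62 to 6.40 without obese mouse 2. Leaving out obese mouse 3 for Krt8 and obese mouse 4 for Gpm6a removed every SAT count of the gene in obese mice, and the fit then gives no bound. A single one of the 10 transcripts exceeded 1 CPM in any SAT library, so they passed the filter through VAT and had to differ, and the count of 10 lends no support of its own. With counts summed per gene, all 9 genes tested were higher in VAT in both diets, where 8.67% of all genes were higher in lean mice and 16.3% in obese mice.

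Levels can be compared between genes per length of annotated exon. On that scale Upk3b led VAT with a mean of 75.75 CPM per kb over the 8 libraries (47.09 to 121.3), followed by Wt1 with 13.57 (8.622 to 19.23). Neither range overlapped the other. Krt18 (9.162), Krt19 (7.715) and Krt8 (7.435) came next, with ranges that overlapped one another and that of Wt1. Gpm6a (2.368), Upk1b (1.967), Msln (1.745) and Lrrn4 (1.692) formed the lowest group of the detected genes, and their ranges overlapped as well. Bnc1 stood at 0.01318 CPM per kb. Of these genes Upk3b, Wt1, Krt8 and Krt18 have a single transcript in the table, and the genes with several may have lost shared reads, so their place in the order may be too low.

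**Figure D2:**
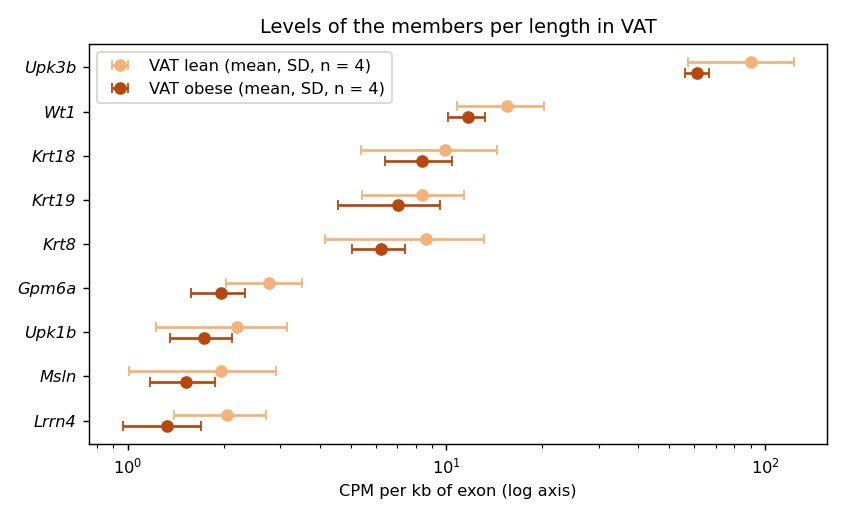
CPM per kb of exon (log axis) of the 9 detected marker genes in VAT of lean and obese mice, as mean and SD of 4 libraries. Upk3b stands alone at 75.75 CPM per kb over both diets, and the lean and obese values of every gene overlap within their SD.

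In VAT the effect of the diet on these genes was asked with all 16 libraries in the fit and without a block, since no mouse had both diets. By the quasi-likelihood test of edgeR, 0 of the 10 transcripts were called, where 10.9% of all transcripts were called in either direction. At an unadjusted p below 0.05 there was 1 of 10, Upk3b, and DESeq2 called 0. With counts summed per gene 0 of 9 were called, where 12.2% of all genes were, and Upk3b and Wt1 had an unadjusted p below 0.05. The estimates of 9 transcripts lay below 0 and that of the minor Msln transcript above it, with a median log2 fold change of -0.46 for the 10 and of 0.02 for all transcripts tested.

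Upk3b averaged 318.6 ± 115.9 CPM in lean and 216.3 ± 18.95 CPM in obese VAT (SD, n = 4), a log2 fold change of -0.56 (SE 0.22, 95% interval -0.99 to -0.13, adjusted p = 0.114 by edgeR). The intervals of log2 fold changes, here and below, treat the estimate as normal and are narrower than the edgeR test would give. For Upk3b 3 of 4 lean libraries were above every obese library, and VAT lean 3 was below them all. Wt1 averaged 99.8 ± 30.37 and 75.13 ± 10.2 CPM, a log2 fold change of -0.40 (SE 0.20, adjusted p = 0.253 by edgeR), with the same arrangement of libraries. Lrrn4 averaged 16.84 ± 5.379 and 10.89 ± 2.998 CPM, with a log2 fold change of -0.63 (95% interval -1.30 to 0.03). Gpm6a averaged 9.794 ± 2.644 and 6.888 ± 1.325 CPM (-0.45, interval -0.98 to 0.07). For these 4 genes the lean values were the higher in 3 of 4 mice, and the groups overlapped through 1 lean library.

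The keratins, Upk1b and Msln overlapped more widely between the diets, with at most 2 lean libraries above every obese one. Krt8 averaged 16.9 ± 8.76 CPM in lean and 12.21 ± 2.29 CPM in obese VAT (log2 fold change -0.53, interval -1.16 to 0.10). Krt18 averaged 14.26 ± 6.51 and 12.07 ± 2.866 CPM (-0.33, interval -0.87 to 0.21). Krt19 averaged 15.54 ± 5.487 and 13.08 ± 4.596 CPM (-0.24, interval -0.87 to 0.39). Upk1b averaged 8.452 ± 3.74 and 6.696 ± 1.487 CPM, and Msln 8.85 ± 4.299 and 6.858 ± 1.582 CPM. The interval of the log2 fold change was -1.06 to 0.15 for Upk1b and -1.28 to 0.10 for the major Msln transcript. Each of these intervals spans 0.

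**Figure D3:**
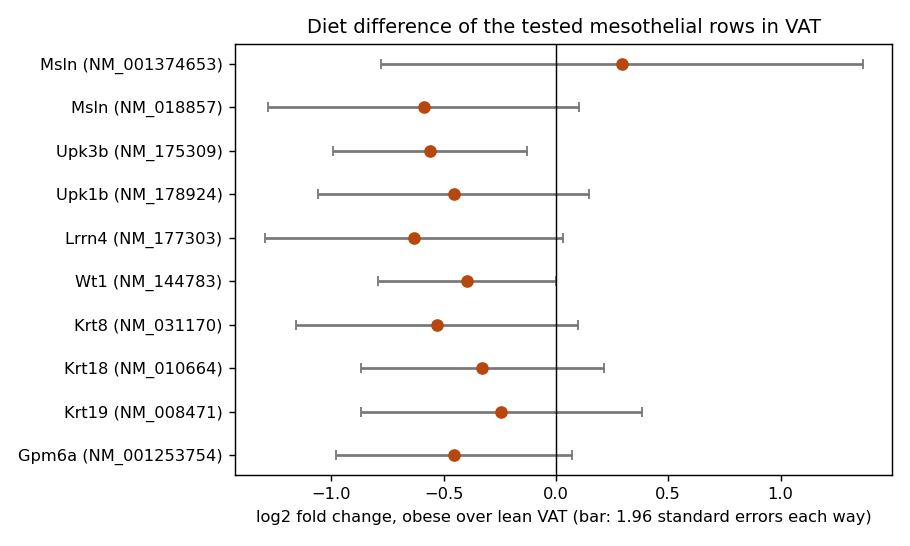
Log2 fold change of obese over lean VAT for each of the 10 tested transcripts of the marker genes, with bars for the normal 95% interval from the SE. The estimates run from -0.63 for Lrrn4 to 0.29 for the minor Msln transcript, and none passed the adjusted threshold.

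The spread of these genes in VAT was wider among lean than among obese mice, a difference that was not itself tested. The highest lean library exceeded the lowest 2.576 times for Upk3b and 4.043 times for Krt8, against 1.197 and 1.538 times in obese VAT. VAT lean 3 was below the mean of the 8 VAT libraries for all 10 tested transcripts, and VAT lean 2 and VAT lean 4 were above it for all 10. VAT lean 3 had the lowest lean value for 8 of the 10 genes. Without that mouse Upk3b (log2 fold change -0.78, edgeR adjusted p = 0.0103) and Wt1 (-0.60, edgeR adjusted p = 0.0214) were called lower in obese VAT, and without lean mouse 2 the estimate for Upk3b was -0.38 and that for Krt8 -0.11. Upk3b was also called without a filter on low counts (-0.61, edgeR adjusted p = 0.00421) and with the newer dispersion setting of edgeR (-0.56, adjusted p = 0.0456).

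**Figure D4:**
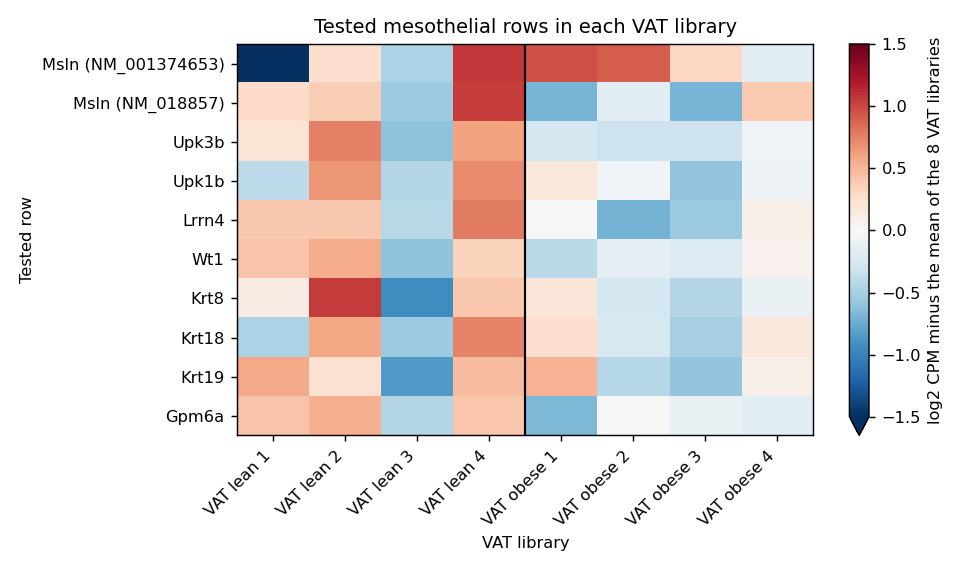
Log2 CPM of each tested transcript of the marker genes in each VAT library minus the mean of the 8 VAT libraries, red above and blue below the mean, with the colour scale ending at -1.5 (the minor Msln transcript lies at -2.86 in VAT lean 1, where it had no count). VAT lean 3 is below the mean in all 10 rows, VAT lean 2 and VAT lean 4 are above it in all 10.

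The proportions of the genes within VAT libraries were steadier for the more abundant ones. Upk3b made up 59.38% to 64.33% of the summed CPM of the 10 genes and Wt1 17.46% to 23.09%. The count ratio of Wt1 to Upk3b lay between 0.2758 and 0.3853, with a mean of 0.3212 ± 0.04949 in lean and 0.3471 ± 0.03231 in obese VAT (SD, n = 4). The proportions of the less abundant genes varied more, Krt18 making up 1.82% to 4.18% of the sum, Krt19 2.45% to 5.36% and Upk1b 1.04% to 2.14%. Relative to Upk3b, the highest ratio was 2.323 times the lowest for Krt18 and 2.366 times for Krt19. The ratio of Krt18 to Krt19 spanned 2.546 times, from 0.4516 in VAT lean 1 to 1.15 in VAT lean 2. The ratio of Krt8 to Krt18 was 1.643 in VAT lean 1, from 23 and 14 counts, and 1.495 in VAT lean 2, against 0.8228 to 1.13 in the other 6 libraries. Over the 8 VAT libraries the Pearson correlation of log2 CPM between pairs of 9 transcripts, 1 a gene, had a median of 0.74 (0.34 to 0.96, 36 pairs) and Spearman's rho a median of 0.65. The transcripts share libraries and depth, and the values are descriptions.

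In SAT the counts were too few to compare the diets. The sum over the 10 genes was 39 counts in lean and 39 counts in obese SAT, on 0.7409 to 2.104 CPM and 0.6876 to 0.9501 CPM per library. By edgeR 0 of the 10 transcripts were called for the diet in SAT, where 11% of all transcripts were, with 0 at an unadjusted p below 0.05 and 0 called by DESeq2. Whether the response to the diet differed between depots was tested within the mouse and called for 0 of the 10 by edgeR, where 2.17% of all were, with 0 at an unadjusted p below 0.05 and 0 called by DESeq2. Upk1b, Wt1 and both tested Msln transcripts had no count in SAT, so neither comparison could be called for them. The counts of 0 of 10 are therefore not to be set against these shares. With counts summed per gene the lowest adjusted p in SAT by edgeR was 0.0567, for Gpm6a with 7 counts in lean and 1 in obese SAT. These comparisons share their libraries with those above.

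Other cell types were read beside the markers through fixed lists of genes. Genes of the intestinal epithelium are of use because the fat was taken from the bowel and the gut lining makes Krt8, Krt18 and Krt19. The list of 14 summed to 68.44 CPM in VAT lean 2 and 77.28 CPM in VAT lean 4, to 19.75 and 18.49 CPM in VAT lean 1 and VAT lean 3, and to 17.76 to 34.37 CPM in obese VAT. SAT held 18.53 to 30.71 CPM, and the most abundant gene of the list, Lgals4, stood at 13.21 CPM in VAT and 13.85 CPM in SAT. Some genes of the list were almost absent from SAT, with 3 counts of Fabp2 and 0 of Apoa4 against 159 and 149 in VAT. Both were highest in VAT lean 4 (15.08 and 12.88 CPM). Lgals4 and Krt20 had more counts in SAT than in VAT. All 14 genes had a count in lean VAT and 11 in obese VAT. Of the 7 transcripts tested 3 fell in obese VAT and 0 rose, where 10.9% of all were called in either direction. They were those of Zg16, Slc5a1 and Muc2, a goblet cell lectin, the intestinal glucose transporter and the main gut mucin. Zg16 and Slc5a1 passed the filter on low counts through lean VAT alone and so had to be lower elsewhere, which leaves Muc2, at 14.04 ± 11.32 CPM in lean and 6.073 ± 2.555 CPM in obese VAT. Muc2 reached 30.28 CPM in VAT lean 2, where Krt8 was at its highest. Between depots the same 3 were called higher in VAT of lean mice and 0 lower, where 7.98% of all transcripts were higher. Zg16 and Slc5a1 again had to differ, and Muc2 had a log2 fold change of 1.16 (adjusted p = 0.0208 by edgeR). In obese mice 0 of the 7 were called between depots by edgeR.

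A list of 8 genes common to many epithelia, of which 4 had a count in lean and 5 in obese VAT, summed to 17.29 CPM in VAT lean 2, to 1.068 to 5.394 CPM in the other lean VAT libraries and to 2.292 to 8.02 CPM in obese VAT. In SAT the list summed to 0.2119 to 2.717 CPM. Its most abundant gene, the adhesion molecule Epcam, stood at 9.777 CPM in VAT lean 2 and at 0.5342 to 3.819 CPM in the other VAT libraries. Epcam was called higher in VAT of lean mice (log2 fold change 4.24, adjusted p = 0.000601 by edgeR) and of obese mice (3.89, adjusted p = 8.8e-05 by edgeR). It had 272 counts in VAT and 12 in SAT and had passed the filter through VAT alone. VAT lean 2 and VAT lean 4, the libraries with the highest intestinal sums, also had the highest sums of the mesothelial genes, 665.6 and 609.1 CPM. The part of this in the diet estimates was not tested. The keratinocyte list gave 7.052 to 14.01 CPM in VAT and 3.998 to 7.284 CPM in SAT, with Krt5 at 0 in every library. Its most abundant gene, Sfn, averaged 7.006 CPM in VAT and 3.876 CPM in SAT and was called higher in VAT of obese mice (adjusted p = 0.00369 by edgeR). Dsp, which encodes desmoplakin, was called higher in VAT in both diets, with 105 counts there and 1 in SAT, and had passed the filter through VAT alone. The exocrine pancreas list gave 42.21 to 91.38 CPM in VAT and 71.24 to 208.3 CPM in SAT, most of it Cela1, which is not confined to the pancreas. Without Cela1 the list was sparse and leaned to VAT, with 61 counts of Pnlip, 48 of Cel and 32 of Prss2 in VAT against 0, 1 and 2 in SAT. Cpa1 and Pnlip were called higher in VAT of lean mice and Pnlip in VAT of obese mice, but both had passed the filter through VAT alone, so these calls lend no support.

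Lists for the main cells of fat were read in the same way. Of the tested transcripts 8 of 18 fell for adipocytes, 5 of 7 rose for macrophages and 3 of 8 rose for B cells, where 10.9% of all were called. Of the 10 tested stromal transcripts 0 were called by edgeR and 0 by DESeq2, with 0 at an unadjusted p below 0.05. The adipocyte list, led by Fabp4, summed to 21400 to 34840 CPM in lean and 15550 to 26440 CPM in obese VAT, and was highest in VAT lean 3, where the mesothelial sum was lowest at 270.4 CPM. The macrophage list summed to 2293 to 3029 CPM in lean and 4911 to 7217 CPM in obese VAT, led by Lyz2, with no overlap of the groups. The B cell list, led by Ms4a1, summed to 44.45 CPM in VAT lean 3, to 149.1 to 312.1 CPM in the other lean libraries and to 268.3 to 505.1 CPM in obese VAT. The list of stromal genes, led by Col3a1, gave 4990 to 7374 CPM in lean and 6044 to 7106 CPM in obese VAT. Whether these shifts bear on the level of the mesothelial genes was not tested.

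**Figure D5:**
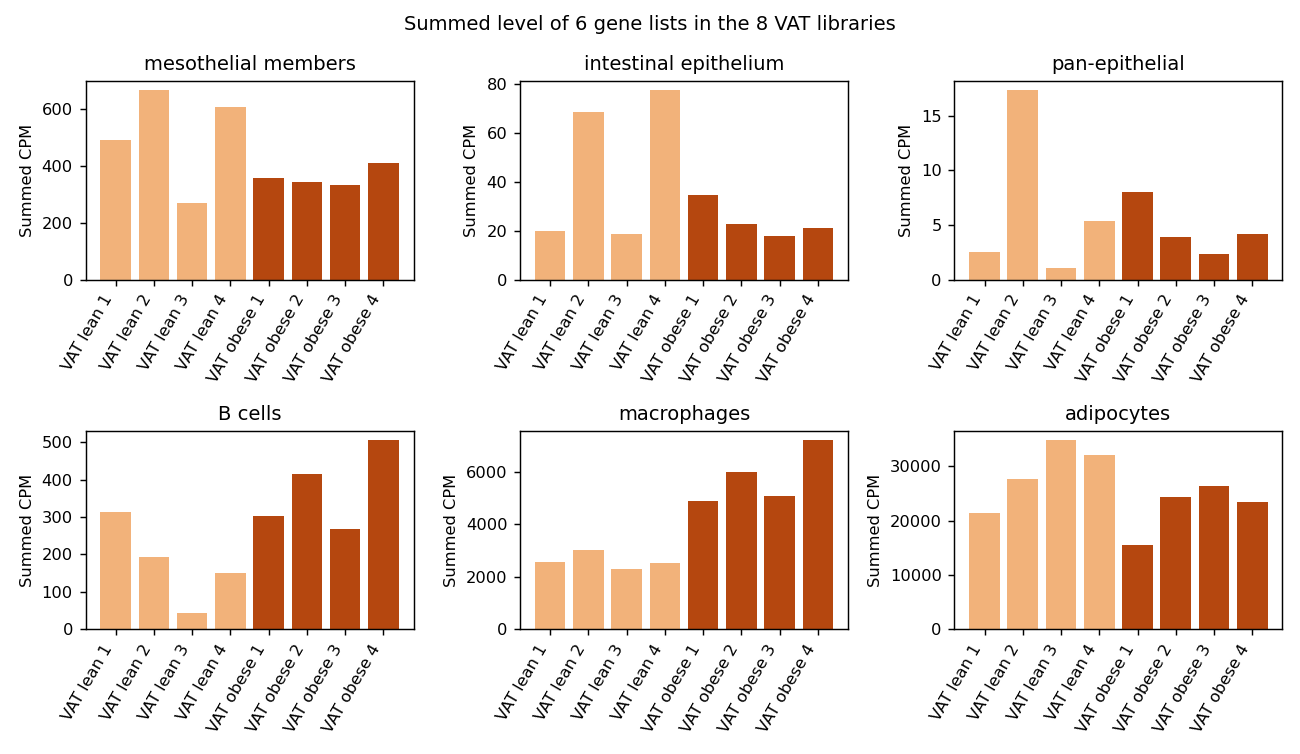
Summed CPM of the 10 mesothelial marker genes and of 5 lists of other cell types in each of the 8 VAT libraries, lean in light and obese in dark bars, each panel with its own axis from 0. The mesothelial sum is lowest in VAT lean 3, the intestinal sum is highest in VAT lean 2 and VAT lean 4, and the macrophage sum separates the diets.

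A second list of 20 genes often used for mesothelium or for the cells below it was described beside the 10. Of these 12 were tested, 9 were higher in VAT of lean mice (7.98% of all transcripts) and 1 lower, and 8 were higher in VAT of obese mice (15.9%) and 2 lower. Krt7, Tcf21, Rspo1 and Efemp1 stayed below 1 CPM in every SAT library, passed the filter through VAT and had to be higher there, so the counts are not to be set against these shares. Krt7, a further simple keratin, had 23.24 ± 8.365 CPM in lean and 15.46 ± 2.842 CPM in obese VAT and at most 0.6358 CPM in SAT. Tcf21, a mesodermal transcription factor, had 7.587 ± 1.094 and 8.07 ± 2.347 CPM in VAT and no count in SAT. Rspo1, a Wnt agonist, had 7.706 ± 3.347 and 10.04 ± 5.346 CPM in VAT and 3 counts in SAT. Efemp1, an extracellular matrix protein, was higher in VAT at a low level, with 6.37, 0.8942, 0.5342 and 1.211 CPM in lean VAT against a mean of 0.2004 CPM in lean SAT, so that its lean mean rested on VAT lean 1, the shallowest library. Muc16, Nkain4, Pkhd1l1 and Slpi stood at 0.7638 CPM or less in every library, Upk3bl had 1 count in VAT and 2 in SAT, and Gata6 had at most 2.548 CPM in VAT. Calb2, the gene of calretinin, and Gata4 had no count in any library.

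Genes of the second list with broad expression were less divided between the depots. Ezr (119.9 CPM in lean VAT against 44.77 in lean SAT), Pdpn (23.65 against 6.962) and Igfbp6 (172.1 against 59.69) were higher in VAT in both diets. Podxl was higher in VAT of lean mice (374.4 against 207.4 CPM), and it rose with the diet in SAT by a log2 fold change of 0.71 (SE 0.16, adjusted p = 0.00486 by edgeR). Dmkn was lower in VAT in both diets, at 2.815 against 9.243 CPM in lean mice. Cldn15 was lower in VAT of obese mice (100.8 against 182.9 CPM) and rose in obese SAT by 0.67 (SE 0.15, adjusted p = 0.0065 by edgeR). Cdh2 was tested and not called in any comparison.

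Aldh1a2, which makes retinoic acid and is known from mesothelium and visceral stroma, was the single gene of the second list called for the diet in VAT. It had 87.26, 125.6, 101.3 and 109.9 CPM in lean and 148.9, 204.6, 203.8 and 231.3 CPM in obese VAT. Every obese library was above every lean one, and the log2 fold change was 0.89 (SE 0.19, adjusted p = 0.00288 by edgeR). In SAT it averaged 8.304 ± 3.46 CPM in lean and 5.271 ± 0.9699 CPM in obese mice, and the response differed between the depots by 1.46 on the log2 scale (SE 0.23, adjusted p = 0.00106 by edgeR). Upk3b and Wt1 had negative estimates in the same libraries in which Aldh1a2 rose.

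Among 11789 other transcripts with a symbol, those whose log2 CPM over the 8 VAT libraries was most like the mean of the tested marker transcripts were named by rule, and 14 had a Pearson r above 0.9. That mean takes in the minor Msln transcript, which had no count in VAT lean 1. Without VAT lean 1 the r of the 10 most like ran from 0.913 to 0.995. How many of the 11789 would pass 0.9 over 8 libraries by chance was not tested. Gjb5, a connexin of gap junctions, followed the markers with r = 0.966 over the 8 libraries. Gjb5 had 10.89 ± 4.326 CPM in lean and 9.697 ± 1.836 CPM in obese VAT and at most 0.6358 CPM in SAT. Fmod, the matrix proteoglycan fibromodulin (r = 0.914), had 215.1 ± 74.22 and 162.9 ± 22.48 CPM in VAT and 5.722 to 13.88 CPM in SAT. Capn6 (r = 0.913) had 16.18 ± 4.483 and 11.99 ± 2.282 CPM in VAT and 0.23 to 2.543 CPM in SAT.

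A further 6 were less tied to VAT. Atp1b1, a subunit of the sodium pump (r = 0.921), had 62.34 CPM in lean VAT and 9.106 CPM in lean SAT, and Cd109 (r = 0.928) had 56.18 and 21.33 CPM. Jup, the junction protein plakoglobin (r = 0.937), had 5.975 CPM in lean VAT and 8.219 CPM in lean SAT. Alkal2 (r = 0.913) stood at 5.972 and 6.347 CPM, and Tnfaip8l3 (r = 0.921) at 2.534 and 0.9182 CPM. Hoxb3 had the highest r, 0.995, on 65 counts over the 8 VAT libraries, and 41 counts in SAT. These values rest on 8 libraries that share depth and composition with the markers, and are descriptions.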

How the data were processed

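The 16 libraries hold RNA of 2 fat depots, inguinal and mesenteric, from each of 8 mice. The authors trimmed paired reads (Trim Galore 0.6.6), aligned them to GRCm39 (HISAT2 2.2.0) and counted them on RefSeq transcripts (HTSeq 0.13.5). The deposited counts are not normalized, and the deposited CPM equal the counts scaled by the library total to within 4.9e-10.

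Symbols were matched by RefSeq identifier for 106821 of 130343 transcripts (82.0%). Counts were tested by the quasi-likelihood test of edgeR 4.0.16 (R 4.3.3) after TMM scaling (legacy=TRUE, CPM above 1 in at least 3 libraries, Benjamini-Hochberg adjusted p below 0.05 over all 13288 transcripts). Depots were compared with the mouse as a block. SAT and VAT were matched by the mouse code in the labels. Deviations from the group means correlated between -0.009 and 0.173 in the 8 pairs from 1 mouse (median 0.0759) and between -0.154 and 0.121 in 24 pairs of different mice (median -0.0392). Levels are CPM with TMM factors, correlations used log2 CPM with a prior count of 2, and ratios with 1 to 3 counts in SAT carry counting intervals. No 2 libraries of a group were copies (lowest chi-square per degree of freedom 7.98). Exon lengths and gene positions came from GENCODE on GRCm39, and promoter windows from RefSeq on GRCm38.p6.

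The genes named were all 10 markers, the tested genes of the second mesothelial list, the most abundant gene of each other list, and the 10 transcripts most like the markers in VAT. A gene under this rule is not reported here. Muc2, Zg16, Slc5a1, Krt5, Dsp, Pnlip, Cel, Prss2, Cpa1 and the genes of the second list at or near 0 were named beside this rule or after their values were seen. So were Fabp2, Apoa4 and Krt20. The markers and lists were chosen with earlier results of these data known. Alternatives were RLE size factors, no filter, filterByExpr, DESeq2 1.42.0, legacy=FALSE, summed counts, other blocks, fits of 8 libraries, and each mouse left out. The test was checked on simulated data. Tables were made in Python 3.11.15 (pandas 2.3.3) and plots with matplotlib 3.10.9.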

Additional observations from a re-analysis of the deposited data

Results flagged for a closer look

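In groups of 4 libraries, a value far from the other 3 was looked for in the 9 detected marker genes in VAT, 18 groups in all, of which chance alone marks about 1 in 20. In obese VAT, Upk1b was low in VAT obese 3 (4.488 CPM against 7.149 to 7.638 CPM in the others), and the gap was 0.8447 of the whole range. In lean VAT, Gpm6a was low in VAT lean 3 (5.877 CPM against 10.79 to 11.68 CPM), and the gap was 0.8457 of the range. The response of Aldh1a2 to the diet differed between VAT and SAT by 1.46 on the log2 scale, by the test of that difference.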

How the results depend on the processing

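Between depots the number of marker transcripts called higher in VAT was 9 to 11 in each alternative. DESeq2 called 9 in lean mice, losing the minor Msln transcript (adjusted p = 0.216). Without a block for the mouse both depot comparisons gave 10 calls and the difference of the response 0, and with the replicate number as a block, a number that pairs no mice of different diets, VAT and SAT gave 0 calls for the diet. For the diet in VAT, 0 calls became 1 without a filter and 1 with legacy=FALSE, in both cases Upk3b, and leaving out each mouse gave 0 to 2 calls, the 2 being Upk3b and Wt1 without lean mouse 3. In the fit of the 8 SAT libraries alone none of the 10 transcripts passed the filter. Of the alternative values for single transcripts 471 kept their direction and side of the threshold, 4 passed it newly and 1 no longer did. The summed CPM in VAT as deposited was 561.4 in lean and 390.1 in obese mice, against 509.1 and 360.3 with TMM factors. Without VAT lean 1 the median correlation among the markers was 0.81. Over all transcripts the difference of the diet response was called for 289, for 128 without the block, 468 by DESeq2, 187 without lean mouse 2, 152 without lean mouse 3 and 135 without obese mouse 4. Without obese mouse 4 the calls over all transcripts also went from 3905 to 2550 between depots in obese mice and from 1451 to 834 for the diet in VAT, and without lean mouse 2 from 1468 to 936 for the diet in SAT. The 78 counts of the 10 genes in SAT limit the precision of the folds between depots, and the depth of VAT lean 1 and VAT obese 1 that of the diet comparison.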
